A study of Homo sapiens with 12 samples.

Results

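MOLT4 cells that had received compound 955 for 6 h were compared with MOLT4 cells that had received the same compound for 1 h, to describe which transcripts changed early and stayed changed, which returned towards the vehicle level, and which changed late. The comparison used 6 of the series' 12 samples, 3 at each time, chosen by their titles, and covered all 5759 genes of the authors' deposited table. MOLT4 is an established human T lymphoblast line from an acute lymphoblastic leukaemia, here with a wild-type genotype label and no modification. The dose of 955 was 0.1 µM in both groups. The other groups were DMSO vehicle for 6 h, against which the authors computed every fold change, and SNS-032 given for 6 h at 1 µM, which is used below only for values beside the classes. Compound 955 carries the cyclin-dependent kinase inhibitor SNS-032 as its target-binding part, joined to piperlongumine, and was made to degrade the proteins it binds. Vehicle cells were collected at 6 h only, so the time spent in 955 and the time spent in culture cannot be told apart. Nothing in the labels says whether the 3 samples of a group were separate cultures, so p-values measure the spread between these samples, which may be technical.

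SNS-032 inhibits the kinases CDK2, CDK7 and CDK9. CDK9, with a cyclin T partner, forms P-TEFb, which phosphorylates RNA polymerase II and its pausing factors and lets the polymerase move from the start of a gene into its body. When new transcription is blocked, an mRNA falls at the pace of its own decay, so short-lived transcripts such as those of immediate early genes are lost first and long-lived ones later. Sequencing libraries are compared per total RNA read, so a stable transcript can take a larger share of a library while its amount per cell does not change.

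Each gene's log2 fold change against DMSO is the authors', and the difference between the times is the 6 h value minus the 1 h value, in which the DMSO samples cancel. A standard error (SE) was taken from the authors' F statistic, and a gene was past the threshold of the difference at a Benjamini-Hochberg adjusted p under 0.05 and an absolute log2 difference of at least 1. The same bounds on the authors' false discovery rate (FDR) were used against DMSO. The table lists genes for having changed in at least 1 comparison with DMSO, gives no values of single samples, and its sequencing depth is unknown. The difference passed for 3609 genes (62.7%), 1556 higher at 6 h (27%) and 2053 lower (35.6%). The median difference was -0.45 and the median SE 0.23. Markers of T lymphoblasts were listed for 11 of 25 genes, CD2, CD4 and CD7 among them, at average levels of 3.74 to 10.1 log2 CPM (counts scaled to library size). The B cell marker CD79A was listed at 3.94, as were the stromal genes COL1A1 and PDGFRB (2 of 6, between 0.56 and 3.18), while of the myeloid markers 0 of 6 were.

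The direction of a difference depends on how the libraries are scaled. The 13 mitochondrially encoded mRNAs, which are made by a separate polymerase, rose together in the authors' deposited table, by a median log2 of 0.67 at 1 h and 2.07 at 6 h. Scaling on them lowers every difference by 1.40, so a difference between 0 and 1.40 becomes negative. Under that scaling 206 genes were past the threshold as higher and 3344 as lower, and higher genes made up 5.80% of the calls, against 43.1% as deposited. Setting the median of the listed genes to 0 at both times raises every difference by 0.97 instead, which gave 2551 higher and 489 lower genes, with higher genes at 83.9%. Directions below are those of the deposited scaling, and for genes past the threshold a change of sign under the mitochondrial one is given beside the gene.

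Genes past the threshold at 1 h were divided by what followed. Against DMSO, 486 listed genes were past it at 1 h (8.44%), 444 lower (7.71%) and 42 higher (0.729%), and 4911 were past it at 6 h (85.3%), 2026 higher (35.2%) and 2885 lower (50.1%), all in the authors' deposited table. Of the 444 early lower genes, 331 (74.5%) were also lower at 6 h and are called early lasting. A further 38 (8.56%) were not past the threshold in that direction at 6 h and had a difference past the threshold upwards, and are called early recovering. The other 75 were early lower genes whose course was not resolved by the difference. Of the 42 early higher genes, 40 lasted, 0 recovered and 2, ALOX12 and GPR89B, were not resolved. Late genes had an FDR of at least 0.05 at 1 h, passed the threshold at 6 h and had a difference past it in the same direction, and there were 1815 late lower and 1313 late higher genes. Late is a statement about the FDR, and 41 of the late lower and 66 of the late higher genes already lay 1 log2 unit or more from DMSO at 1 h. Another 739 lower and 671 higher genes were past the threshold at 6 h but fell in no class. Both comparisons rest on the same DMSO samples and the 1 h value enters the class and the difference, so these counts are descriptions.

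**Figure D1:**
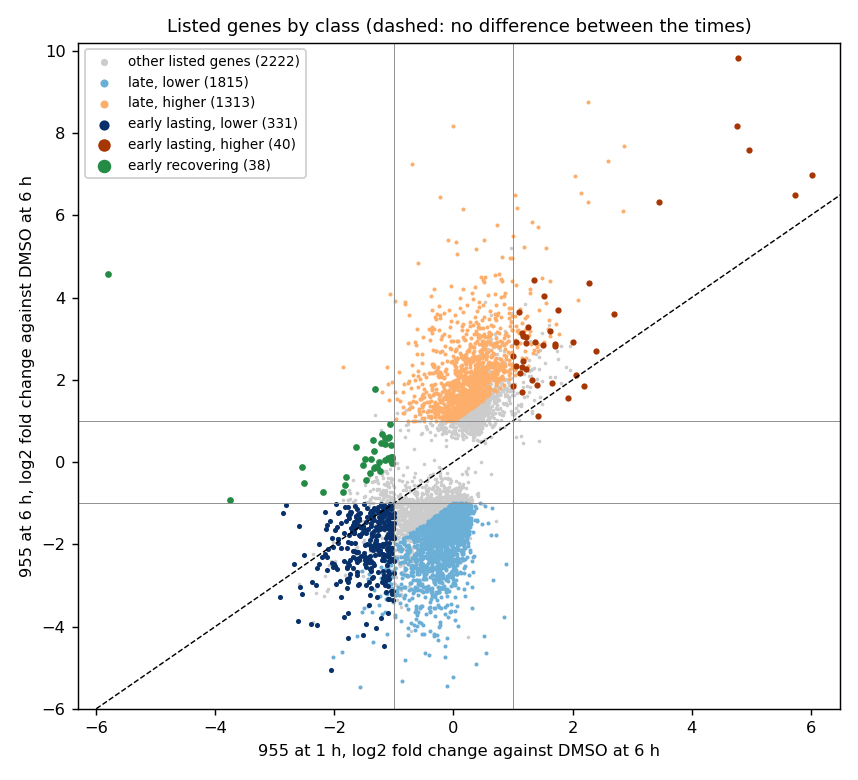
Log2 fold change against DMSO at 1 h (x axis) and at 6 h (y axis) of 955 for each of the 5759 listed genes, coloured by class, with grey lines at an absolute value of 1 and a dashed line of equal values. The 331 early lasting lower genes (dark blue) lie in the lower left, and the 38 early recovering genes (green) at the left around and above 0 at 6 h. The 1815 late lower (light blue) and 1313 late higher genes (orange) have median 1 h values of -0.13 and 0.27. Of these, 41 and 66 lie 1 or more from 0 at 1 h.

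The start regions of 1 gene from each class are shown as examples of the sequences in which motif letters were counted for the classes here and for gene lists below. CDKN1B stands for the early lasting, E2F7 for the early recovering, KPNA2 for the late lower and PPFIA4 for the late higher genes. The sequences are the 250 bases before the annotated start, from RefSeq on GRCh38.p14, at chr12:12717118-12717367 (plus strand), chr12:77065570-77065819 (minus strand), chr17:68035485-68035734 (plus strand) and chr1:203026241-203026490 (plus strand). Capitals mark CCAAT (the letters bound by NF-Y), TTTGAA (the core of the CHR element of cell cycle genes), ACGTG (the core of hypoxia response elements) and CACGTG (the E-box), on either strand, so that a CCAAT on the other strand reads ATTGG and a TTTGAA reads TTCAAA.
CDKN1B: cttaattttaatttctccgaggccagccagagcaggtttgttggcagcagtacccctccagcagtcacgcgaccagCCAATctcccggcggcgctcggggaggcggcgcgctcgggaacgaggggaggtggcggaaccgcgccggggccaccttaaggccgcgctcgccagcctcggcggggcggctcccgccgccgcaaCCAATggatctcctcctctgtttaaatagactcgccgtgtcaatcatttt
E2F7: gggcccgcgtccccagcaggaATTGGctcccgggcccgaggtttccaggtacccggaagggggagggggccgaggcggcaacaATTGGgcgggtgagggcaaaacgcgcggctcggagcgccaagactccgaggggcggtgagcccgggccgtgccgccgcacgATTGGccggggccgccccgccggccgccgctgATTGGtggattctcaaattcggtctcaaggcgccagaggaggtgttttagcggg
KPNA2: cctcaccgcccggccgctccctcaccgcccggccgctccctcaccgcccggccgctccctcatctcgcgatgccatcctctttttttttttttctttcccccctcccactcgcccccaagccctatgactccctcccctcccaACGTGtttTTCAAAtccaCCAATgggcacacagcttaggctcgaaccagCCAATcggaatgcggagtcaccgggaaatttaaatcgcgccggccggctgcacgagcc
PPFIA4: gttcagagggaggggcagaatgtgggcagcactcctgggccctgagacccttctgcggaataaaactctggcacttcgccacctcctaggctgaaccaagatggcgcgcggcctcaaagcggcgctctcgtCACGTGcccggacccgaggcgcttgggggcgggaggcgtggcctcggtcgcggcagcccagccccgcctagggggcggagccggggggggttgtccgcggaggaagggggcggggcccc
The CDKN1B window holds 2 CCAAT, the E2F7 window 4 and the KPNA2 window 2, beside 1 TTTGAA and 1 ACGTG. The PPFIA4 window holds 1 CACGTG, which reads ACGTG on both strands, and no CCAAT. Counted over a window that runs on to 50 bases after the start, CCAAT was in 43.1% of early lasting lower, 41.9% of early recovering, 41.1% of late lower and 31.6% of late higher protein-coding genes with a promoter in the table, against 37.9% of all listed ones. A match of letters is a description and shows neither binding nor a cause.

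Early lasting lower genes included members of the lists of G1 regulators, NF-kB pathway genes and immediate early genes, and 64 genes with ZNF names. Their median log2 fold change in the authors' deposited table was -1.37 at 1 h, which is 38.7% of the DMSO level, and -1.97 at 6 h, or 25.5%. The difference passed the threshold downwards for 87 of the 331 (widening) and upwards for 2 (narrowing), and was not resolved for 242. CDKN1B, which encodes the CDK inhibitor p27, was at 22.4% of DMSO at 1 h and 21.4% at 6 h in the authors' deposited table (log2 fold changes -2.16 and -2.22, SE 0.28 at each time). Its difference of -0.07 (SE 0.28, adjusted p 0.826) was within the spread between samples. TNFRSF1A, the TNF receptor, had log2 fold changes of -2.0 at 1 h and -2.53 at 6 h in the authors' deposited table, and a difference of -0.53 (SE 0.27, adjusted p 0.0737). NFKBIA, which encodes the inhibitor of NF-kB IκBα, had -1.79 and -2.87 in the authors' deposited table and a difference past the threshold, at -1.08 (SE 0.30, adjusted p 0.00351). The interferon-response factor gene IRF1 had -1.72 and -1.61 in the authors' deposited table and a difference of 0.11 (SE 0.16, adjusted p 0.528), or -1.29 under mitochondrial scaling. MIDN, a factor in ubiquitin-independent protein degradation, had a difference of -0.06 (SE 0.17). PPM1D, a phosphatase that opposes p53 signalling, differed by -0.47 (SE 0.18, adjusted p 0.0189), under the fold bound. The 2 narrowing genes were METTL18, at -2.82 and -1.04 in the authors' deposited table with a difference of 1.77 (SE 0.38), and CCRL2, at -2.86 and -1.24 with a difference of 1.62 (SE 0.42), both of low average level (1.96 and 1.63 log2 CPM).

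**Figure D2:**
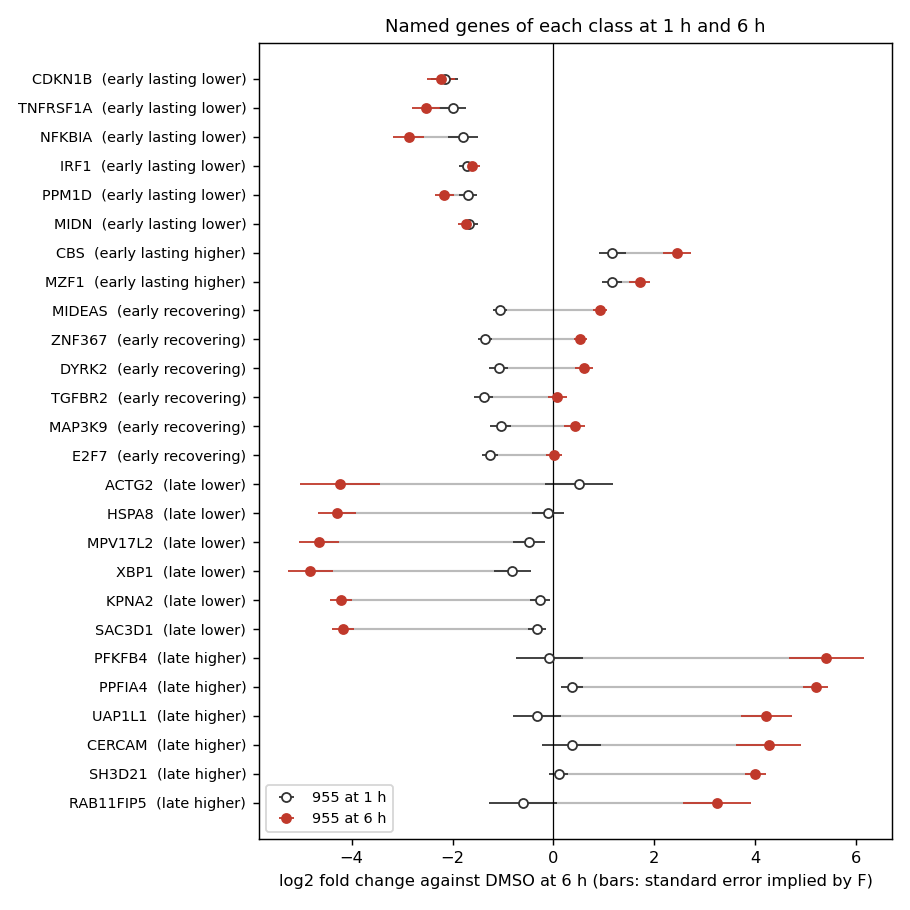
Log2 fold change against DMSO (x axis) at 1 h (open circles) and 6 h (filled red circles) of 955 for the genes named from each class, with bars for the SE implied by the F statistic. CDKN1B, IRF1 and MIDN have both circles at nearly the same place, E2F7 and TGFBR2 move from -1.25 and -1.38 to 0.01 and 0.08, and the late genes start between -0.81 and 0.51 and end beyond 3 in either direction.

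Genes with ZNF names, most of which encode C2H2 zinc finger transcription factors, made up 3.46% of the listed genes (199) and 18.7% of the early lower genes (83 of 444). Of the 199, 64 were early lasting lower, 5 early recovering, 27 late lower and 12 late higher. Their median log2 fold change in the authors' deposited table was -1.03 at 1 h and -1.32 at 6 h, against -0.05 and -1.03 over all listed genes. In the difference, 20 rose and 42 fell, which is 10.1% and 21.1% of them, both under the shares of all listed genes.

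Members of the lists of early response, NF-kB and G1 genes took different courses. For reference, 7.71% of all listed genes were past the threshold downwards at 1 h. In the difference, 27% of all listed genes rose and 35.6% fell. Of 28 listed immediate early and growth factor response genes, 10 were past the threshold downwards at 1 h, 6 of them early lasting and 2 early recovering. In the difference 5 rose and 5 fell (17.9% each), and the median difference was -0.22. The early lasting members included DUSP2, a MAP kinase phosphatase, with log2 fold changes of -2.12 and -2.62 in the authors' deposited table. They also included GADD45B, with -1.52 and -1.57, and IER5, with -1.75 and -1.77, in the authors' deposited table. MYC, the growth-promoting transcription factor gene, had -1.03 at 1 h (FDR 0.0685) and -3.07 at 6 h in the authors' deposited table, and fell between the times by 2.04 (SE 0.28, adjusted p 5.23e-05). Of the 16 listed NF-kB pathway genes 5 were lower at 1 h, among them NFKBIE, with -2.22 at 1 h and -2.31 at 6 h in the authors' deposited table. Its difference was -0.09 (SE 0.38), while RELA, an NF-kB subunit, fell late, by 2.26 (SE 0.27). In the difference 5 of the 16 rose and 5 fell (31.25% each), and TRAF1 rose late, by 3.35 (SE 0.41). Of 14 listed G1 regulators, 6 were lower at 1 h. CCNE1, E2F8 and CDC25A lasted with CDKN1B, and E2F2 and E2F7 recovered. In the difference 3 of the 14 rose (21.4%) and 4 fell (28.6%), and CCND2 rose late, by 3.27 (SE 0.61). MCL1, whose short-lived product opposes apoptosis, stood at -0.99 at 1 h and -1.02 at 6 h in the authors' deposited table, just outside and just inside the fold bound. Its difference was -0.03 (SE 0.16, adjusted p 0.86).

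Early lasting lower genes were short and had few exons. On GENCODE release 29 models, the 325 early lasting lower protein-coding genes with a model had a median span of 12.99 kb and 4 exons, against 25.6 kb and 8 exons for the 5260 listed ones. Single-exon genes made up 12.9% against 3.38%. Without the ZNF-named genes the span was 10.3 kb and the single-exon share 15.7%. By exon number, 27.5% of 178 single-exon genes were lower at 1 h, 17.95% of those with 2 to 4 exons, 6.67% of those with 5 to 9 and 3.19% of those with 10 or more. At 6 h the shares were 55.6%, 62.6%, 57.8% and 44.3%. The early recovering genes were not short, with a median span of 25.9 kb and 5 exons. Their annotated 3' untranslated regions were long, at a median of 1.97 kb against 0.93 kb. The letters TATTTAT, a motif of unstable mRNAs, were in 52.8% of those regions against 28.8%, but per kb their number was 0.35 against 0.31. The early lower genes whose course was not resolved had similar values, with a median span of 23.8 kb, 3' regions of 2.05 kb and the letters in 52.7% of them, at 0.38 per kb, so these traits were not particular to the recovering genes.

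**Figure D3:**
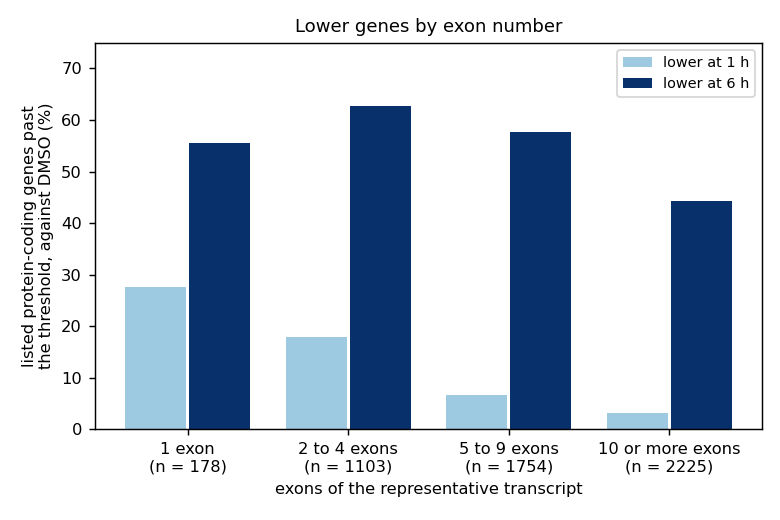
Share (%) of listed protein-coding genes past the threshold as lower than DMSO at 1 h (light bars) and 6 h (dark bars) of 955, by the number of exons of 1 representative transcript. The 1 h share falls from 27.5% at 1 exon to 3.19% at 10 or more, and the 6 h share lies between 44.3% and 62.6% in every bin.

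Early recovering genes included E2F2 and E2F7 of the G1 list, SOCS1 and SOCS3 of the ubiquitin ligase list, FOSL2 and ARID5B of the immediate early list and 5 genes with ZNF names. Over all 38, the median log2 fold change in the authors' deposited table was -1.30 at 1 h (40.7% of DMSO) and 0.06 at 6 h (104%). At 6 h 23 of the 38 had a positive value, 25 lay within 0.5 of the DMSO level, and for 5 the FDR in the authors' deposited table was under 0.05. The differences ran from 1.01 to 10.4. Under mitochondrial scaling 21 of the 38 differences stayed above 0 and 2 stayed past the threshold, FOSL2 and TRA-TGC4-1. For the others a rise past the threshold was not kept under that scaling. With SNS-032 at 6 h, 1 of the 38 was past the threshold as lower in the authors' deposited table and 4 as higher. Of all listed genes 90.2% were past it with SNS-032, 52.5% as lower and 37.8% as higher, and of the 331 early lasting lower genes 316 were lower. A change with SNS-032 is itself 1 of the ways into the listed genes. Both classes were also chosen by their 6 h values against the same DMSO samples. These SNS-032 counts were thus partly set by the choice of genes and are descriptions only.

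MIDEAS, a subunit of the mitotic deacetylase complex, had log2 fold changes of -1.06 at 1 h and 0.93 at 6 h in the authors' deposited table. Its difference was 1.99 (SE 0.14, adjusted p 2.69e-11). The zinc finger factor gene ZNF367 differed by 1.89 (SE 0.13, adjusted p 2.26e-11), from -1.35 to 0.53 in the authors' deposited table. DYRK2, a protein kinase gene, differed by 1.69 (SE 0.18), and TGFBR2, which encodes a receptor for TGF-β, by 1.46 (SE 0.18). MAP3K9, a mixed-lineage kinase gene, also differed by 1.46 (SE 0.20). These 5 differences remained positive under mitochondrial scaling, at 0.06 to 0.59, without passing the threshold. E2F7, a repressor of the E2F family, went from -1.25 at 1 h to 0.01 at 6 h in the authors' deposited table, with a difference of 1.26 (SE 0.15, adjusted p 1.3e-07) that became -0.13 under mitochondrial scaling. E2F2, an activator of the same family, differed by 1.2 (SE 0.14), or by -0.19 under mitochondrial scaling. MAP3K14, which encodes the NF-kB-inducing kinase, went from -1.48 to 0.09 in the authors' deposited table and differed by 1.57 (SE 0.19). SOCS1 and SOCS3, inhibitors of JAK-STAT signalling, differed by 1.12 (SE 0.31) and 2.0 (SE 0.65), and the first became -0.27 under mitochondrial scaling. CHAC1, a glutathione-degrading enzyme gene of the ATF4 programme, differed by 2.84 (SE 0.79) at a low average level of 0.26 log2 CPM. ARID5B, a leukaemia-associated transcription factor gene, differed by 1.18 (SE 0.30), or by -0.21 under mitochondrial scaling.

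FOSL2 and TRA-TGC4-1 were past the threshold in opposite directions at the 2 times. FOSL2, an AP-1 subunit gene, had a log2 fold change of -1.31 at 1 h (FDR 0.0166) and 1.78 at 6 h (FDR 6.85e-05) in the authors' deposited table, and a difference of 3.09 (SE 0.32, adjusted p 9.24e-09). It was 1.69 under mitochondrial scaling. TRA-TGC4-1, an alanine transfer RNA gene, had -5.81 and 4.58 in the authors' deposited table and a difference of 10.4 (SE 0.84). Its average level was 1.2 log2 CPM, and transfer RNAs have near-identical copies and no poly(A) tail, so its value is uncertain.

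Early lasting higher genes were annotated as protein-coding less often than listed genes in general. Of the 40, 16 were annotated as protein-coding, 9 as lncRNA, 7 as transcribed pseudogenes and 4 as short RNA types, and 4 gene IDs had no match. Among early lower genes 98.2% were protein-coding, and 91.5% of all listed genes were. The class had median log2 fold changes of 1.46 at 1 h and 2.90 at 6 h in the authors' deposited table. For 26 of the 40 the difference was past the threshold upwards (widening), and 39 were also higher with SNS-032. The SNS-032 count rests on the same DMSO samples that chose the class. RPPH1, the RNA of ribonuclease P, had 1.36 at 1 h and 4.44 at 6 h in the authors' deposited table and a difference of 3.08 (SE 0.30). CBS, a cystathionine synthase gene, had 1.17 and 2.45 in the authors' deposited table. It differed by 1.29 (SE 0.27, adjusted p 0.000305), which became -0.11 under mitochondrial scaling. MZF1, a zinc finger factor gene, differed by 0.55 (SE 0.20), under the fold bound, or by -0.84 under mitochondrial scaling. Outside the class, the small nucleolar RNA SNORD3A rose between the times by 4.24 (SE 0.22) and the lncRNA SNTG2-AS1 by 3.35 (SE 0.15). Of the lncRNAs that fell, LINC02273 had a difference of -2.94 (SE 0.20) and LINC02991 of -2.72 (SE 0.60). ORAI1, which encodes a calcium channel subunit and is counted outside the protein-coding genes here only because the RefSeq table types it as a transcribed pseudogene, had a difference of -1.99 (SE 0.26). SNORD3A and RPPH1 lack poly(A) tails and the libraries were made with an mRNA kit, so these values rest on the part of such RNAs that entered them.

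Late lower genes included those for the machinery of growth and division: ribosome assembly, protein folding, mitosis, splicing and sterol synthesis. The 1815 genes had median log2 fold changes of -0.13 at 1 h (91.6% of DMSO) and -1.73 at 6 h (30.1%) in the authors' deposited table. Of 92 listed ribosome biogenesis factors, 73 fell between the times and 0 rose, with a median difference of -1.68. Those that fell made up 79.3%, against 35.6% of all listed genes. With the median of the listed genes at 0, 32 fell and 3 rose. BRIX1, UTP14A and UTP11, which assemble the ribosomal subunits, fell by 3.44 (SE 0.30), 3.28 (SE 0.27) and 2.98 (SE 0.16). Of 32 listed chaperones, 26 fell and 1, HSPB1, rose, with a median of -1.83. With the median of the listed genes at 0, 11 fell and 3 rose. HSPA8, the constitutive HSP70, went from -0.11 at 1 h to -4.29 at 6 h in the authors' deposited table, and its difference was -4.18 (SE 0.35, adjusted p 3.52e-06). The HSP40 gene DNAJA1 fell by 3.67 (SE 0.38) and HSPA5, the chaperone of the endoplasmic reticulum, by 3.31 (SE 0.48). Of the 32 chaperones 7 had under 10 denominator degrees of freedom, a measure of how well the spread is known that is taken up with the hypoxia genes below. HSPB1, a small heat shock protein gene, rose by 1.23 (SE 0.38), which became -0.16 under mitochondrial scaling.

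Of 65 listed mitotic genes, 51 fell (78.5%, against 35.6% of all listed genes) and 1 rose, with a median of -1.62. With the median of the listed genes at 0, 20 fell and 2 rose. PLK1, a mitotic kinase gene, went from -0.24 at 1 h to -4.02 at 6 h in the authors' deposited table and fell by 3.78 (SE 0.14, adjusted p 2.4e-15). The mitotic cyclin genes CCNB1 and CCNB2 fell by 3.74 (SE 0.31) and 3.56 (SE 0.35). These 2 had 9.97 and 8.95 denominator degrees of freedom. KNTC1, a kinetochore gene, rose by 1.32 (SE 0.11), a difference that became -0.08 under mitochondrial scaling. CCNF, an F-box cyclin gene, and FBXO5, an inhibitor of the anaphase-promoting complex, were already lower at 1 h and fell further, by 2.04 (SE 0.13) and 1.23 (SE 0.25). KPNA2, an importin that carries proteins into the nucleus, fell by 3.94 (SE 0.21), and SAC3D1, a centrosome gene, by 3.85 (SE 0.20). Of 56 mitotic genes with a promoter in the table, 75% held CCAAT and 55.4% TTTGAA in the window from 250 bases before to 50 after the start. The shares over all 27305 RefSeq promoters were 35.7% and 15.4%. CACGTG was in 35.9% of 78 ribosome biogenesis promoters, against 7.43% of all and 10.1% of those of listed genes. It was in 31.6% of 19 lysosome and autophagy promoters.

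Splicing factor genes fell in 26 of 37 cases (median -1.45), with BCAS2 lower by a difference of -3.23 (SE 0.21), and 1, SNRPD2, rose, by 1.16, a difference that became -0.24 under mitochondrial scaling. Of 40 listed DNA replication and repair genes 22 fell and 2, ATM (1.05, or -0.35 under mitochondrial scaling) and DDB2 (1.68), rose. The median was -1.08, and PCNA, the replication clamp, fell by 3.06 (SE 0.14). Of 17 elongation factor genes, 10 fell, among them PAF1 by 2.87 (SE 0.21), and 2 rose, TCEA2 and the 7SK RNA gene RN7SK, the latter by 3.05 (SE 0.30). CCNT1, the cyclin partner of CDK9, had a difference of -0.72 (SE 0.22, adjusted p 0.00596), under the fold bound. CDK9, HEXIM1 and POLR2A are not analysed here. Of 23 RNA polymerase II and Mediator genes 14 fell and 0 rose (median -1.13), led by MED19 with a difference of -2.90 (SE 0.25). Of 47 genes of 3' processing, export and decay 26 fell (55.3%) and 2 rose, and of 34 nuclear genes of the respiratory chain 16 fell (47.1%) and 2 rose. The shares that fell were 70.3% for splicing, 55% for replication and repair, 58.8% for elongation and 60.9% for RNA polymerase II and Mediator. Over all listed genes 35.6% fell. Sterol and fatty acid synthesis genes fell in 12 of 16 cases (median -1.59), and SQLE, the squalene epoxidase, by 3.15 (SE 0.43). Of these 16 genes 4, SQLE among them, had under 10 denominator degrees of freedom. With the median of the listed genes at 0, 10 splicing factor genes fell and 4 rose, and 3 and 6 of replication and repair. The counts were 2 and 3 for elongation factors, 1 and 3 for RNA polymerase II and Mediator, and 3 and 10 for 3' processing, export and decay. For the respiratory chain they were 4 and 16, and for sterol and fatty acid synthesis 3 and 3. XBP1, the transcription factor of the unfolded protein response, went from -0.81 to -4.82 in the authors' deposited table and fell by 4.0 (SE 0.41, adjusted p 4.08e-06). Of the 26 listed genes of that response, 11 fell (42.3%) and 5 rose (19.2%), and 6 had under 10 denominator degrees of freedom. With the median of the listed genes at 0, 4 fell and 8 rose. KEAP1, the adaptor that marks NRF2 for degradation, went from -0.88 at 1 h (FDR 0.0209) to -3.53 at 6 h in the authors' deposited table, and fell by 2.65 (SE 0.23). Its FDR at 1 h keeps it out of the late class. MPV17L2, a factor of mitochondrial ribosomes, fell by 4.16 (SE 0.36), and ACTG2, a smooth muscle actin gene, by 4.75 (SE 0.74).

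**Figure D4:**
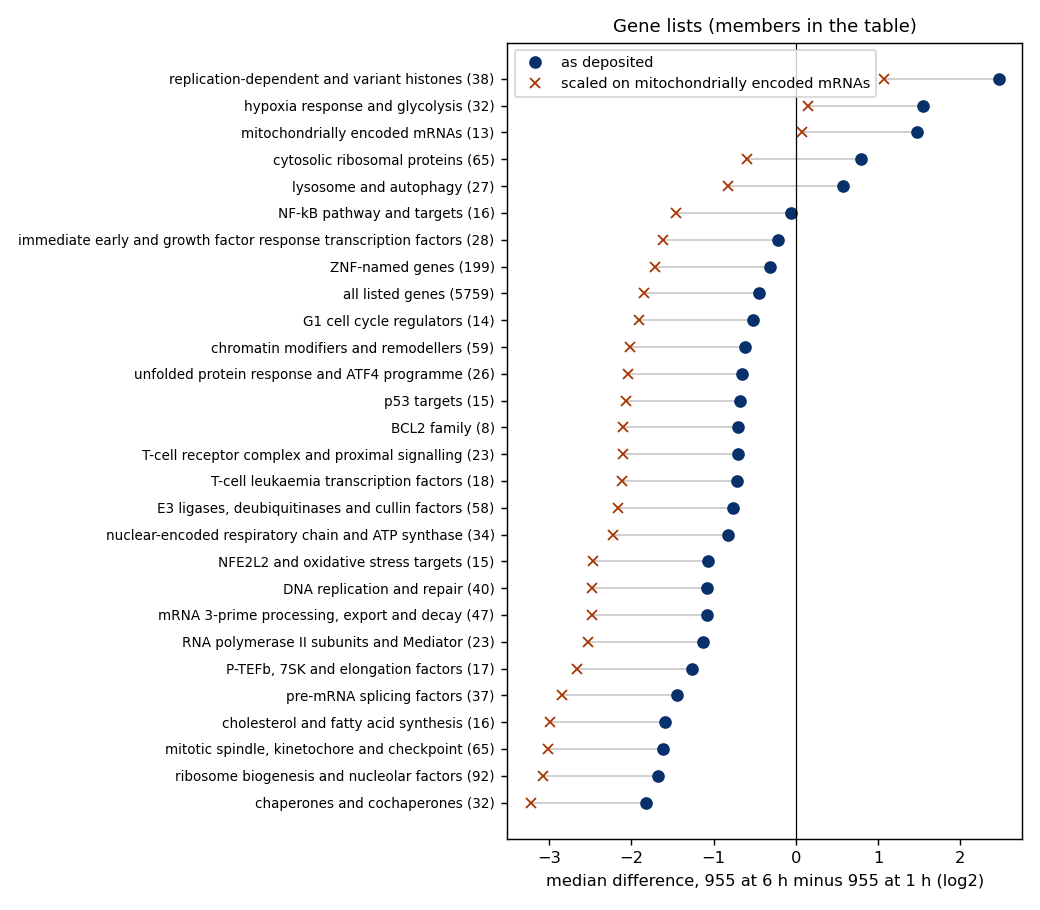
Median log2 difference, 6 h minus 1 h of 955, of the listed members of each gene list (number in brackets), as deposited (blue circles) and scaled on mitochondrially encoded mRNAs (orange crosses, each 1.40 lower). Chaperones (-1.83), ribosome biogenesis (-1.68) and mitosis (-1.62) are lowest, histones (2.47) and hypoxia response (1.54) highest, and ribosomal proteins (0.80) cross 0 under the scaling.

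Other signalling and regulatory lists were mixed. Over all listed genes 35.6% fell and 27% rose, and several of these lists lie near those shares. Of 58 ubiquitin ligases, deubiquitinases and cullin factors 25 fell (43.1%) and 9 rose (15.5%). TRIM21, an antibody-binding ubiquitin ligase gene, fell by 2.98 (SE 0.36). Of 59 chromatin regulators 20 fell (33.9%) and 15 rose (25.4%). They ran from PRMT6, a methyltransferase gene, at -2.24 (SE 0.23) to PCGF2, a Polycomb gene, at 3.63 (SE 0.65). Of 23 genes of the T cell receptor complex and its signalling 10 fell and 4 rose. CD2, an adhesion receptor, fell by 2.65 (SE 0.17) and CD4, the coreceptor, rose by 1.90 (SE 0.42). CD4 had 8.57 denominator degrees of freedom. Of 18 T cell leukaemia transcription factor genes 5 fell and 3 rose, among them BCL11B, a T lineage factor gene, by 1.94 (SE 0.15). In the p53 target list 5 of 15 fell (33.3%) and 3 rose (20%), and in the NFE2L2 list 8 of 15 fell and 3 rose. In the lysosome and autophagy list 12 of 27 fell and 7 rose. In the BCL2 family 2 of 8 fell (25%) and 2, BNIP3 and BNIP3L, rose (25%). BNIP3 had 8.25 denominator degrees of freedom. The median of the lysosome list was positive (0.57) although more of its members fell than rose, and it was -0.82 under mitochondrial scaling.

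Late higher genes included 17 of 32 listed hypoxia response genes and 31 of 38 histone genes. Of the ribosomal protein genes 10 of 65 were in the class, against 1313 of 5759 listed genes. The class had median log2 fold changes of 0.27 at 1 h and 1.90 at 6 h in the authors' deposited table. Of 32 listed genes of the hypoxia response and glycolysis, 26 rose (81.2%, against 27% of all listed genes) and 1, LDHA, fell. The median difference was 1.54, and 0.15 under mitochondrial scaling, where 6 rose and 1 fell. PFKFB4, which controls a regulator of glycolytic flux, went from -0.08 at 1 h to 5.40 at 6 h in the authors' deposited table and rose by 5.49 (SE 0.71, adjusted p 9.29e-05). P4HA1, a collagen prolyl hydroxylase gene, rose by 3.72 (SE 0.51), and VEGFA, the angiogenic growth factor gene, by 3.65 (SE 0.44). LDHA, the lactate dehydrogenase A gene, fell by 2.76 (SE 0.58). PFKFB4, LDHA and P4HA1 had 8.24, 8.24 and 8.29 denominator degrees of freedom and VEGFA 8.65, where the median of the listed genes was 23.3 and 12 samples in 4 groups alone give 8. Fits that share information on spread across genes give such low values to genes whose own replicates vary unusually. Of the 32 genes 10 had under 10, against 3.49% of all listed genes, and 17 of the others rose and 0 fell. The part of this spread in the result was not tested. ACGTG was in 53.6% of 28 promoters of the list, against 21.6% of all RefSeq promoters and 26.5% of those of listed genes. It was also in 48.7% of 78 ribosome biogenesis and 46.9% of 32 splicing factor promoters, lists whose members mostly fell. PPFIA4, a liprin of synaptic scaffolds, rose by 4.82 (SE 0.23), SH3D21 by 3.90 (SE 0.20), UAP1L1 by 4.54 (SE 0.49), CERCAM by 3.90 (SE 0.62) and RAB11FIP5, a Rab11-binding protein gene, by 3.84 (SE 0.67).

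Of 38 listed histone genes, 32 rose (84.2%, against 27% of all listed genes), 3 fell and 3 did neither, with a median of 2.47. Under mitochondrial scaling 17 rose and 4 fell, with a median of 1.07. The 3 that fell were H2AX (-2.58, SE 0.14), CENPA (-2.09, SE 0.18) and H2AZ1 (-1.68, SE 0.17), which encode histone variants. The mRNAs of CENPA and H2AZ1 are polyadenylated, and H2AX has both forms. The largest rises were those of H2BC8 (6.66, SE 1.31), H2BC14 (5.15, SE 0.78) and H3C13 (4.73, SE 0.77), at average levels of 1.01, 0.45 and 1.17 log2 CPM. Replication-dependent histone mRNAs normally end in a stem-loop without a poly(A) tail, copies are near-identical, and an mRNA kit was used, so the level of each gene is uncertain. Of 34 histone promoters in the table, 94.1% held CCAAT and 64.7% TATAAA, against 35.7% and 11.95% of all RefSeq promoters.

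Of 65 listed ribosomal protein genes 23 rose (35.4%, against 27% of all listed genes), 1 fell and 41 did neither. The median difference was 0.80, or -0.60 under mitochondrial scaling, where 0 rose and 11 fell. RPLP1 and RPS12 rose by 1.42 (SE 0.11) and 1.43 (SE 0.13), and RPL36AL fell by 2.35 (SE 0.22). All 13 mitochondrially encoded mRNAs rose as deposited, by 1.29 to 1.66, with CYTB, a subunit of complex III, at 1.66 (SE 0.15). Their median serves as the reference of the mitochondrial scaling, under which 0 of the 13 were past the threshold.

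**Figure D5:**
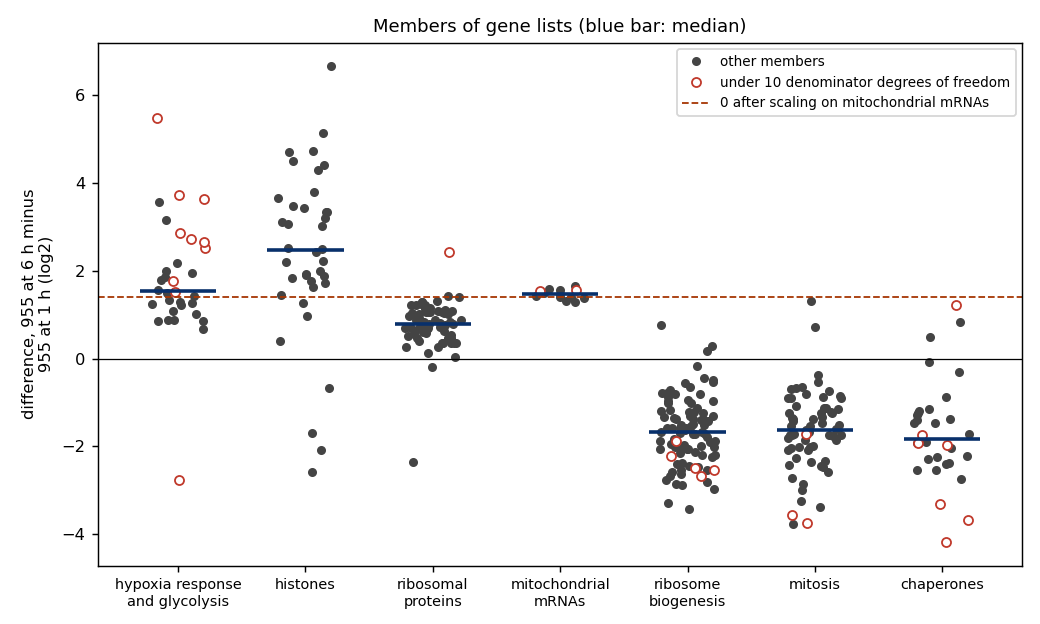
Log2 difference, 6 h minus 1 h of 955, of each listed member of 7 gene lists (points, spread sideways at random), with the median (blue bar), 0 (solid line) and the level that becomes 0 under mitochondrial scaling (dashed line, 1.40). Open red circles are genes with under 10 denominator degrees of freedom, which make up 10 of the 32 hypoxia genes, and ribosomal protein genes lie mostly between the solid and the dashed line.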

How the data were processed

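RNA-seq of MOLT4 cells (12 samples, 4 groups of 3 assigned from their titles) was used as a table of the authors' 3 comparisons against DMSO. Per the file headers, the deposited values are a log fold change and an average log CPM, taken to be log2 values since each listed gene reaches at least 1.00 in size in some comparison, an F statistic (a score), a p-value and an FDR. The submitters' processing notes name DESeq2 and hg38. The column names (logFC, logCPM, F) are not those of DESeq2 output, the test that made them is not stated, and every SE and degree of freedom here rests on reading F as a statistic with 1 numerator degree of freedom. Aligner, annotation, filters, counting tool and strandedness are not given in the sources used here. No values per sample were used, so depth is unknown and no replicate was left out.

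The difference between the times was the 6 h minus the 1 h log2 fold change. Each comparison's SE was obtained as the size of the fold change divided by √F, and the 2 were combined as a root mean square. A t distribution gave p-values, using the denominator degrees of freedom recovered from F and p, with Benjamini-Hochberg adjustment over 5759 genes (scipy 1.17.1, pandas 2.3.3). The arithmetic was checked on simulated normal values with 1 spread per gene in all groups and 8 degrees of freedom. There the test equals a direct one by construction, so the check does not cover the authors' unstated model. The test assumes groups of equal size and a common spread. The FDR values correspond to 28395 tests.

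Gene IDs were matched to RefSeq (GRCh38.p14, 5727 of 5759). Exons, spans and 3' regions came from GENCODE release 29 and promoters from RefSeq (27305 genes). Both strands of the window from 250 bases before to 50 after the start were searched for CCAAT as the NF-Y motif, for TTTGAA as the CHR core, for ACGTG as the hypoxia core, for CACGTG as the E-box and for TATAAA as the TATA box. An E-box also counts as a hypoxia core. The number of lists was 26.

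Named genes were, at or above the median level (4.15 log2 CPM): by class, the 6 lowest early lasting, the 4 highest early higher, the 6 largest recovering and the 6 largest late genes in each direction; the narrowing genes; genes in opposite directions; 3 non-coding genes each way; and up to 3 genes each way per list and members past the threshold at 1 h, both at any level; and a set of key genes. METTL18 and CCRL2 lie below that level, and they, ALOX12 and GPR89B were named after their values were seen. The members and lists were chosen with earlier results of these data known. Alternatives were other SEs, degrees of freedom, thresholds, filters and scalings. The values of some genes are not reported here.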

Additional observations from a re-analysis of the deposited data

Results flagged for a closer look

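FOSL2 and TRA-TGC4-1 were past the threshold in opposite directions at 1 h and at 6 h of 955, and the difference between the times was itself tested. FOSL2 differed by 3.09 on the log2 scale (SE 0.32, adjusted p 9.24e-09). TRA-TGC4-1 differed by 10.38 (SE 0.84, adjusted p 5.62e-10), with implied SEs of 1.07 at 1 h and 0.52 at 6 h. The direction of the FOSL2 and TRA-TGC4-1 differences was kept under mitochondrial scaling, at 1.69 and 8.99. No cause was tested for either gene.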

How the results depend on the processing

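No paired analysis was possible because the values come from a table of comparisons without columns for single samples, and for the same reason no replicate was left out. Of 135 counts compared with their alternatives, 93 were within 1.5 times and 42 were not. Under the larger SE, the SE that ignores the shared control, 8 degrees of freedom, adjustment over 28395 tests, an average level of at least 1 and at least 10 degrees of freedom (added after seeing the data), every count of all genes and of the classes that was compared was within 1.5 times. Of the hypoxia list, 26 genes rose and 1 fell, and 17 and 0 when genes with under 10 degrees of freedom were left out.

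Scaling on mitochondrially encoded mRNAs gave 206 higher and 3344 lower genes between the times, 11 higher and 1597 lower genes at 1 h and 105 higher genes at 6 h. The classes then held 7 early lasting higher, 1538 early lasting lower, 2 recovering higher and 21 recovering lower, 84 late higher and 855 late lower genes. With the median of the listed genes at 0, there were 2551 higher and 489 lower genes between the times and 738 lower at 6 h, and the classes held 129 early lasting lower, 155 recovering lower, 1985 late higher and 402 late lower genes. With an absolute log2 value of at least 2, 953 genes passed between the times (444 higher, 509 lower), 12 higher and 36 lower at 1 h, and 712 higher and 910 lower at 6 h, with 11 early lasting higher, 22 early lasting lower, 4 recovering lower, 361 late higher and 448 late lower. With no bound on the log2 value, 272 were higher and 686 lower at 1 h, with 270 early lasting higher, 615 early lasting lower, 1 recovering higher and 63 recovering lower. With that bound dropped at 1 h alone, 241 genes were early lasting higher and 546 early lasting lower. At an FDR of 0.01, 24 genes were higher at 1 h and 24 early lasting higher. The threshold and the constant shift account for these changes by construction.

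Of 213 genes named by the rule, 160 were past the threshold of the difference, and of these 20 changed sign under mitochondrial scaling and 0 under any other alternative run. Genes short of the threshold also changed sign under the scalings, such as MZF1 (-0.84, mitochondrial) and MCL1 (0.94, median of the listed genes at 0). The 20 differences became -0.11 for CBS, -0.13 for E2F7, -0.21 for ARID5B, -0.19 for E2F2, -0.24 for SNRPD2, -0.0805 for KNTC1, -0.35 for ATM, -0.38 for UQCR11, -0.0648 for NDUFA3, -0.16 for HSPB1, -0.14 for TNFRSF10B, -0.11 for MDM4, -0.0701 for STAT5A, -0.20 for CD6, -0.30 for STARD4, -0.27 for SOCS1, -0.25 for RC3H1, -0.14 for PABPC1, -0.25 for FTL and -0.13 for CTSB. Depth is unknown, and it limits what can be said of genes of low average level.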
